A study of Mus musculus with 2 samples.

Results

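The 8 genes described here encode regulators that are tied to the formative and primed states of pluripotency, the states that mouse embryonic stem cells pass through when they leave the naive, ground-like state. They are the transcription factors Foxd3, Pou3f1, Zic2, Zic5, Sall2 and Utf1, the secreted protein Fst (follistatin) and the RNA-binding protein Lin28a. They were taken by symbol from a table of 14500 gene symbols, and each of the 8 has a row. The question was which of these factors of the exit from the naive state differ between cells with a Gbx2 vector and cells with the empty vector, and which do not.

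The cells were 46C mouse embryonic stem cells, a line with a green fluorescent reporter in the Sox1 locus, at passages 21 to 24. The deposited levels of both libraries also carry the mark P3, and its meaning was not established here. PB is the library of cells that received only the vector backbone, and PB-Gbx2 that of cells in which Gbx2, a homeobox transcription factor, was overexpressed. Both cultures grew in serum with LIF (leukaemia inhibitory factor, which holds stem cells undifferentiated), and neither the vector's promoter nor whether a culture was a clone or a pool is given in the sources used here. There is 1 library per group, so no value has a replicate error and no test between the vectors can be made. The source names of the samples say the reverse of the titles. Groups follow the titles, and every direction would turn around if the source names were right. Gbx2 itself stood at a level of 345 in PB and 1178 in PB-Gbx2, the direction of the titles. Reads of the vector and of the endogenous gene are not separated.

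As background, naive stem cells resemble the epiblast before implantation, and the formative and primed states resemble it shortly before and after. On leaving the naive state, cells turn down a set of naive factors, turn on others such as Otx2 and Pou3f1, and move POU5F1 (OCT4) to other enhancers. FOXD3 and ZIC proteins take part in that change of enhancers, and LIN28A, through the let-7 microRNAs and through messenger RNAs it binds, acts on the timing of the transition. Serum with LIF keeps a mixed culture, in which some cells express genes of later states.

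Each level is the authors' normalized value, a whole number without a unit, made so that both libraries have the same distribution, and read depth is unknown. The log2 ratio sets PB-Gbx2 over PB after adding 1 to each level, while folds are ratios of the levels as deposited. A gene was called past 2-fold where the log2 ratio reached 1 or -1. Of all 14500 genes, 5.14% were past 2-fold higher in PB-Gbx2, 5.26% past 2-fold lower, and 10.4% past it in either direction. Because low levels scatter more, each regulator was also set beside its neighbours in mean level, the 725 genes of the twentieth of the table that holds it (itself included). Embryonic stem cell identity was checked with Pou5f1 (9446 in PB and 10597 in PB-Gbx2), Sox2 (9894 and 10302) and Tdgf1 (31035 in both), which were abundant in both libraries. Esrrb (7508 and 9456), Nanog (8918 and 19872) and Zfp42 (8320 and 16671) were read for the same purpose and were abundant too. Nanog and Zfp42 were past 2-fold higher in PB-Gbx2, so these markers were not all equal between the libraries.

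The regulators did not move as a group. Foxd3 was 4.01-fold higher and Fst 7.33-fold higher in PB-Gbx2, none was 2-fold lower, and 6 of the 8 stayed within 2-fold. Sall2 was the other gene above 0, and Pou3f1, Zic2, Zic5, Utf1 and Lin28a were all below 0, with Lin28a the lowest at a log2 ratio of -0.55. The median log2 ratio of the 8 was -0.17, against 0 over all genes. The share past 2-fold was 25%, against 10.4% of all genes, but it rests on 2 genes, and Fst could be listed only because it differed, as described with its values.

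**Figure D1:**
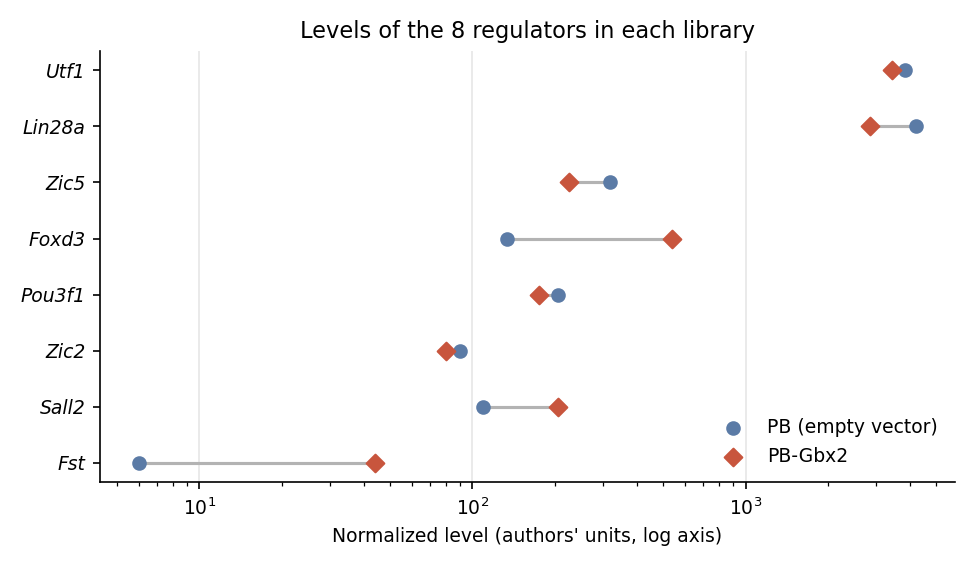
Normalized level (log axis, authors' units) of each of the 8 regulators in the PB library (circles) and the PB-Gbx2 library (diamonds), 1 library each and so without error bars; rows are ordered by level per kilobase in PB. Foxd3 goes from 134 to 538 and Fst from 6 to 44, while Utf1 and Zic2 lie nearly on top of each other.

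Foxd3, a forkhead factor that acts mainly as a repressor and is needed for the epiblast and for stem cell self-renewal, stood at a level of 134 in PB and 538 in PB-Gbx2. The log2 ratio was 1.997. Of the 725 genes of similar level, which had means between 306.5 and 386, 3 had a ratio at least as far from 0, Foxd3 included (0.414%), and 4.28% were past 2-fold in either direction. It was thus outside the range in which most genes of its level lay. The authors' deposited table gives Foxd3 a p-value of 0.000156 and an adjusted p of 0.0579, both resting on these same 2 libraries.

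The start of Foxd3 is shown because this gene had the widest ratio among the regulators with both levels well above the table's minimum. The sequence is the 250 bases before the RefSeq start on GRCm38.p6, chr4:99656049-99656298, plus strand, written 5′ to 3′, with TAAT in capitals, the short core that many homeodomain proteins bind. The deposited table holds no coordinates and its reads were mapped to mm9, so these positions belong to the reference and not to the table.
Foxd3: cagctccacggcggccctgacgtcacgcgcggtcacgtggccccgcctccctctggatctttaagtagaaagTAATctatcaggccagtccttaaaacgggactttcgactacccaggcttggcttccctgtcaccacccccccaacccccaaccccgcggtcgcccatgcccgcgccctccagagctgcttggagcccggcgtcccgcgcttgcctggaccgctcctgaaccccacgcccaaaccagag
The window holds 1 TAAT on either strand, which overlaps no other motif searched, and no TAATTA, the longer palindromic core. Of 32851 RefSeq windows of this length, 54.9% hold TAAT (or its reverse complement ATTA) and 4.84% hold TAATTA. The window is 65.6% GC with 21 CpG dinucleotides, against a median of 52.4% and 6 over all windows. A match of letters is a description, and no binding was measured here.

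Other forkhead genes from a list of the A, D, H, O and P families gave a mixed picture. Of 15 genes besides Foxd3, 9 had a row, 2 were at least 2-fold higher (Foxa1, 4 in PB and 24 in PB-Gbx2, and Foxa3, 16 and 43), and none was 2-fold lower. Both are endoderm factors at low levels, and Foxa1 has a row only through PB-Gbx2. Among all genes, 5.14% were past 2-fold higher. The better expressed Foxo3, of the insulin-responsive branch, stood at 1815 and 2450, Foxo4 at 1776 and 1522, and Foxp4 at 1656 and 1184. Foxh1, the partner of SMAD2 and SMAD3 in Nodal signalling, stood at 524 and 494. The relatives without a row include Foxd1, Foxd2 and Foxd4.

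Pou3f1 (OCT6), a POU-domain factor that marks the epiblast once it has left the naive state, stood at a level of 206 in PB and 176 in PB-Gbx2. It was 1.17-fold lower in PB-Gbx2 (log2 ratio -0.23). Of the genes of similar level, 61.0% had a ratio at least as far from 0, so this difference lay well inside their scatter. The other POU genes did not share one direction. Of 13 relatives, 8 had a row. Pou3f3, a neural class III factor, was listed at 1 in PB and 26 in PB-Gbx2 and has a row only through the latter. Pou4f2, a factor of sensory neurons, was 2.19-fold lower (70 and 32). Pou2f1 (OCT1), expressed in most cells, was 1.42-fold lower (1351 and 954). Pou5f1 (OCT4) was 1.12-fold higher, Pou4f1 stood at 91 and 165, Pou2f2 at 105 and 140, Pou2f3 at 363 and 305, and Pou6f1 at 68 and 88. With Pou3f1 included, the family median was 0.17.

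The zinc finger genes Zic2 and Zic5 were both lower in PB-Gbx2, neither of them 2-fold. Zic2, which binds enhancers in stem cells and is needed for the developing forebrain, stood at a level of 90 in PB and 80 in PB-Gbx2 (log2 ratio -0.17), and 79.6% of genes of similar level lay at least as far from 0. Zic5, a relative that lies close to Zic2 on chromosome 14, stood at 320 and 225 and was 1.42-fold lower (log2 ratio -0.51), with 25.5% as far from 0. The ratios of both lay within the 5th to 95th percentile of genes of their level.

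Sall2, a spalt-family zinc finger factor that is expressed in neural and primed cells, stood at a level of 109 in PB and 206 in PB-Gbx2. It was 1.89-fold higher (log2 ratio 0.91), just under the 2-fold threshold, and 14.1% of genes of similar level lay at least as far from 0. The other spalt genes went the same way. Sall1 stood at 1576 and 2564 (1.63-fold higher), Sall4, a core stem cell factor, at 2828 and 4010 (1.42-fold higher), and Sall3 at 41 and 104 (2.54-fold higher, with 11.7% of genes of its level as far from 0). Thus all 4 family members were above 0, with a median log2 ratio of 0.81, against 0 over all genes. Past 2-fold was 1 of the 4, Sall3, which is at a low level, while 5.14% of all genes were past 2-fold higher.

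Utf1, a chromatin-bound factor found at developmental genes and a known target of OCT4 and SOX2, stood at a level of 3843 in PB and 3430 in PB-Gbx2. It was 1.12-fold lower (log2 ratio -0.16), and 48.7% of genes of similar level lay at least as far from 0. At this height genes scatter little, since 1.10% of the genes of similar level were past 2-fold.

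**Figure D2:**
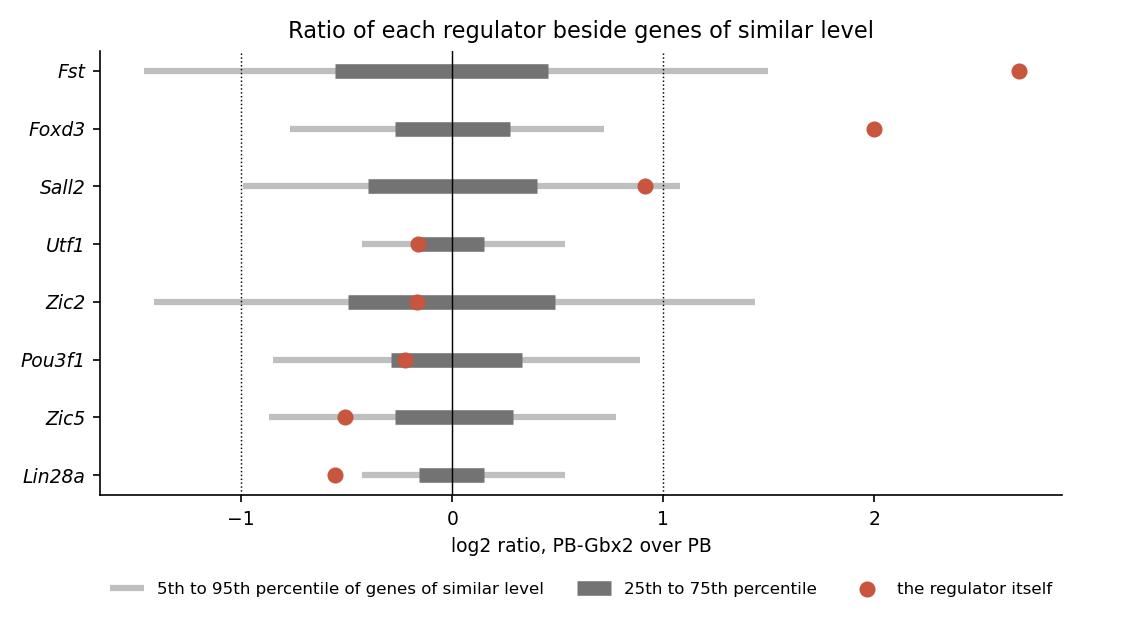
Ratio (log2, PB-Gbx2 over PB) of each regulator (points), with the 5th to 95th (thin bars) and 25th to 75th (thick bars) percentile of the 725 genes of similar level; dotted lines mark 1 and -1. Fst and Foxd3 lie above the thin bars, Lin28a at -0.55 lies below its bar, which starts at -0.43, and the other 5 lie inside theirs.

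Lin28a binds the precursors of let-7 microRNAs and blocks their maturation, and let-7 in turn targets Lin28a. Its level was 4206 in PB and 2863 in PB-Gbx2, 1.47-fold lower in the latter (log2 ratio -0.55). Although this is under 2-fold, its level is one at which genes scatter little: 53 of the 725 genes of similar level (7.31%) had a ratio at least as far from 0, and Lin28a was at percentile 2.83 of them. The authors' deposited table gives it a p-value of 0.0826 and an adjusted p of 1. Lin28b, its paralogue, stood at 298 and 361, so the 2 paralogues went in opposite directions, each by less than 1.5-fold.

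The let-7 sequences are shown because they link Lin28a to the other genes of its pathway. They are mature forms from RefSeq on GRCm38.p6, 5′ to 3′, with the seed (bases 2 to 8) in capitals.
mmu-let-7a-5p: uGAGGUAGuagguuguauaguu
mmu-let-7d-5p: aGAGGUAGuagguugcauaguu
mmu-let-7g-5p: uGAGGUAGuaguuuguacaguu
mmu-miR-98-5p: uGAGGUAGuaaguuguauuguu
mmu-let-7j: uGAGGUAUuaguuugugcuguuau
Of the 11 let-7 and miR-98 forms found, 10 share the seed of let-7a and 1, let-7j, ends it with another base. The reverse complement of the shared seed, in DNA letters, is CTACCTC. Among the 8 regulators, Lin28a alone held these letters after the stop codon of its longest GENCODE M21 transcript, at 2 places, against 10.6% of 12595 genes of the table with such a region. The first place, with 15 bases before it and the match in capitals, reads as follows.
Lin28a: gcacagcctgttgaaCTACCTC
Small RNAs were not measured, so the let-7 levels themselves are not known here.

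In the wider LIN28 and let-7 pathway, of 28 listed genes besides Lin28a, 1 was at least 2-fold higher and none 2-fold lower, and the median log2 ratio was 0.04. Over all genes, 5.14% and 5.26% passed 2-fold and the median was 0, and fewer did at the high levels of most of these genes, so the count does not set the pathway apart. The one past 2-fold was the cyclin Ccnd1 (670 in PB and 1380 in PB-Gbx2). The processing enzymes Dicer1 (2982 and 2644) and Drosha (2695 and 2682) were close to equal, as was the terminal uridylyl transferase Zcchc11 (1576 and 1510), which LIN28A recruits to let-7 precursors. Among classic let-7 targets, Igf2bp3 stood at 616 and 1130 (1.83-fold higher), Hmga2 at 108 and 192 (1.78-fold higher), Igf2bp1 at 4010 and 5544, and Trim71, a stem cell RNA-binding protein, at 3637 and 4565. The nuclear receptor Nr6a1 (1095 and 868) and Arid3b (1624 and 1176) were lower. Of the 27 pathway genes with a region to search, Lin28a included, 16 held the let-7 match. Of these 16, 8 lay above 0 and 8 below, with a median of 0.01, against 0.09 for the 11 without it. Genes with a match thus showed no common direction.

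Upstream of Lin28a, the 250 bases before the RefSeq start are shown for comparison with those of Foxd3, as the regulators at the 2 ends of the ratios among the well listed ones. The window lies on GRCm38.p6 at chr4:134018817-134019066, minus strand, and CATTGT, a core that SOX proteins bind, is in capitals.
Lin28a: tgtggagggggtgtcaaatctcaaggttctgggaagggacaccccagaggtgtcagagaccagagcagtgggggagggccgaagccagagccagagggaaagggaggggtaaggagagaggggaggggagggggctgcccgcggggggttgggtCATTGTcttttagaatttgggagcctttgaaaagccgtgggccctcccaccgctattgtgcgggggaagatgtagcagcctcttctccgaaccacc
It holds 1 CATTGT on either strand, as do 10.7% of windows at least once (with the reverse complement ACAATG counted), no TAAT and no TAATTA. It is 61.2% GC with 7 CpG dinucleotides, against 21 in Foxd3. Windows were found for 5 of the 8 regulators. Those of Utf1 and Zic5 and the nearer of the 2 Sall2 windows hold neither TAAT nor CATTGT, whereas the other Sall2 window, at 28% GC and without a CpG, holds 7 TAAT. The octamer ATTTGCAT, bound by POU factors, is in none of the 6 windows of these genes and in 1.60% of all windows.

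Fst encodes follistatin, a secreted protein that binds activin and keeps it from its receptors. Its level was 6 in PB and 44 in PB-Gbx2 (log2 ratio 2.68). Of genes of similar level, 24.4% were past 2-fold, and 8 of the 725 lay at least as far from 0 (1.10%). Ranked by the geometric mean level instead, Fst was at percentile 96.6 rather than 99.5. No row of the table has a mean level under 8, so a gene at 6 in both libraries would not be listed, and Fst was listed only through its higher library. Its 2-fold call therefore gives no support to a count over the 8, and without it 1 of the other 7 regulators is past 2-fold. In PB-Gbx2 Fst was still the least abundant of the 8.

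Genes around follistatin differed in both directions. Of 26 listed genes besides Fst, 5 passed 2-fold upward in PB-Gbx2 and 3 downward, with a median log2 ratio of 0.17. The shares over all genes were 5.14% upward and 5.26% downward. Some of the calls were at low levels, and a minimum level of 100 in either library left 3 higher and 2 lower. Among the ligands, the activin subunit gene Inhbb stood at 772 in PB and 1891 in PB-Gbx2 (2.45-fold higher), and 0.552% of genes of its level lay at least as far from 0. Nodal (1260 and 3058) and Gdf3 (371 and 757), ligands that use the same receptors, were also past 2-fold. Inha, whose product turns activin subunits into inhibin, stood at 24 and 36. The authors' deposited table gives an adjusted p of 0.102 to Inhbb.

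Among the antagonists, the Lefty genes were lower in PB-Gbx2, with Lefty1 at 180 and 34 and Lefty2 at 664 and 222. Fstl3, which binds activin as follistatin does, was 2.58-fold lower (31 and 12), at a low level. Fst went the other way, but was listed only through PB-Gbx2. Of other genes named for likeness to follistatin, Fstl5 (8 and 44) and Fstl4 (8 and 27) were past 2-fold higher, both at low levels. Fstl1 was 1.69-fold higher (1892 and 3204). The receptors differed little, with Acvr1b at 1257 and 1542, Acvr2a at 214 and 250, and Acvr2b at 291 and 242. The signal transducers Smad2 (460 and 514) and Smad4 (945 and 1039) also stayed close, and Smad3 was 1.55-fold higher (305 and 474). The ligand gene Inhba, which encodes the main subunit of activin A, has no row.

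**Figure D3:**
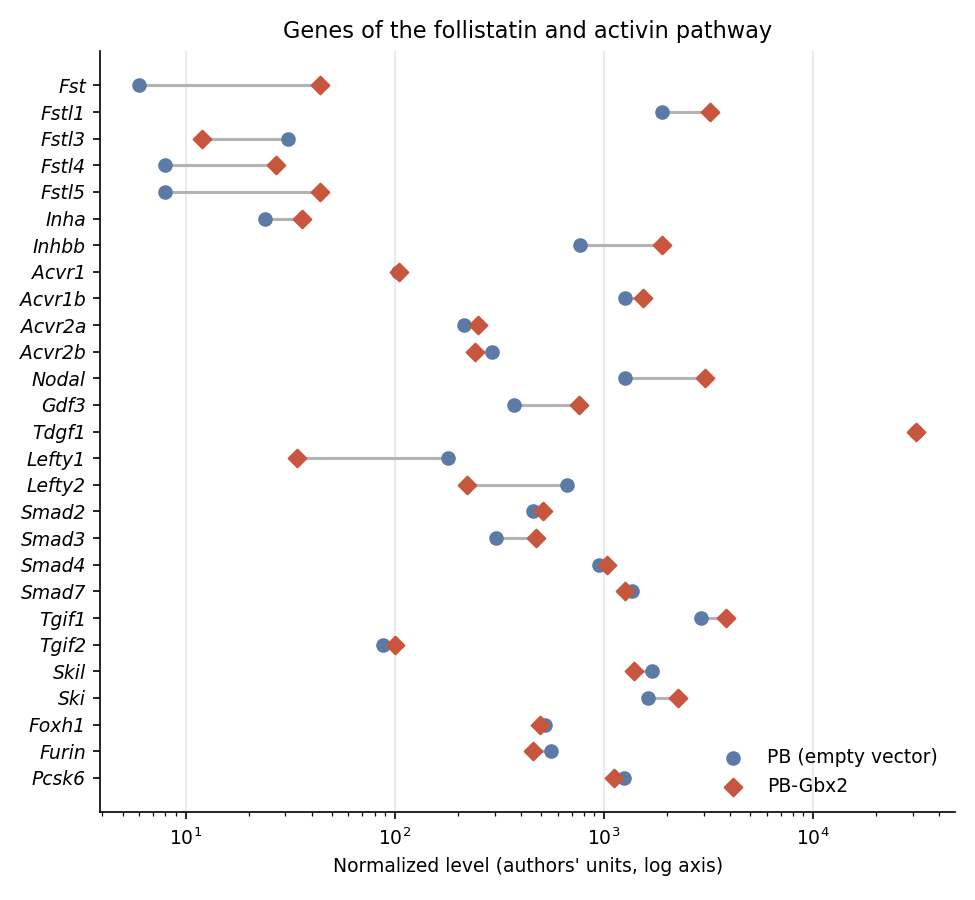
Normalized level (log axis, authors' units) of the 27 listed genes of the follistatin and activin pathway in PB (circles) and PB-Gbx2 (diamonds), 1 library each. The ligand genes Inhbb, Nodal and Gdf3 lie to the right in PB-Gbx2, Lefty1 and Lefty2 lie to the left, and the pairs of the receptor genes, Smad2 and Smad4 lie close together.

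Levels of different genes can be set side by side only per length, here per kilobase of the longest protein-coding GENCODE M21 transcript and on the assumption that the deposited levels grow with length as read counts do. On this scale Utf1 was the most abundant regulator (3132 per kilobase in PB and 2795 in PB-Gbx2), followed by Lin28a (1200.0 and 817). The next, Zic5 (67.1 in PB), Foxd3 (57.7) and Pou3f1 (53.5), were close to each other in PB, and Zic2 (36.9), Sall2 (21.2) and Fst (2.12) came last. In PB-Gbx2 Foxd3 (231 per kilobase) came next after Lin28a, ahead of Zic5 (47.2) and Pou3f1 (45.7), and Sall2 (40.0) came before Zic2 (32.8). Without replicates, it cannot be said which neighbours in these orders differ beyond their spread. Utf1 and Lin28a thus stood far above the other 6 in both libraries.

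Other factors of the formative and primed states, taken from a list of 30 genes that leaves out the 8, gave no common direction either. Of the 29 with a row, 3 passed 2-fold upward and 2 downward in PB-Gbx2, against 5.14% and 5.26% of all genes. The median was 0, with 13 genes on the higher side and 14 on the lower. The lower ones were Dnmt3b, a de novo DNA methyltransferase (4290 in PB and 1761 in PB-Gbx2), and the keratin Krt18 (363 and 164). The higher ones were Nodal, Sall3 and Sox3 (3 and 30), and Sox3, like Fst, was listed only through its higher library. Otx2, the homeobox factor that drives the step to the formative state, stood at 492 and 373 (1.32-fold lower), and Etv5, an ETS factor of the same step, at 5223 and 5698. Tcf7l1, a repressor of naive genes, stood at 428 and 398, and Zfp281 at 2460 in both. The list includes Sall3, a relative of Sall2.

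A list of 32 genes tied to the exit from the naive state had a row for each, with 2 at least 2-fold higher in PB-Gbx2, none 2-fold lower and a median of 0. One of the higher genes does not promote the exit: Nanog (8918 and 19872), whose loss eases it, is a naive factor that the naive list also holds. The other was the receptor gene Fgfr2 (42 and 102). Fgf4, the ligand that sets off ERK signalling in these cells, stood at 5290 and 7356, the kinase gene Mapk3 at 3528 and 2836, and the Polycomb partner Jarid2 at 10586 and 8508. On the other side, of 19 naive state factors 5 were at least 2-fold higher in PB-Gbx2 and none 2-fold lower, with a median of 0.43. Of these 19, 12 lay above 0 and 7 below, the lowest being Klf5 (1808 and 1092). For comparison, 5.14% of all genes were past 2-fold higher and 5.26% past 2-fold lower. The lists were chosen with earlier results of these data known. With 1 ratio per gene, no link between Foxd3 and these factors can be drawn.

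**Figure D4:**
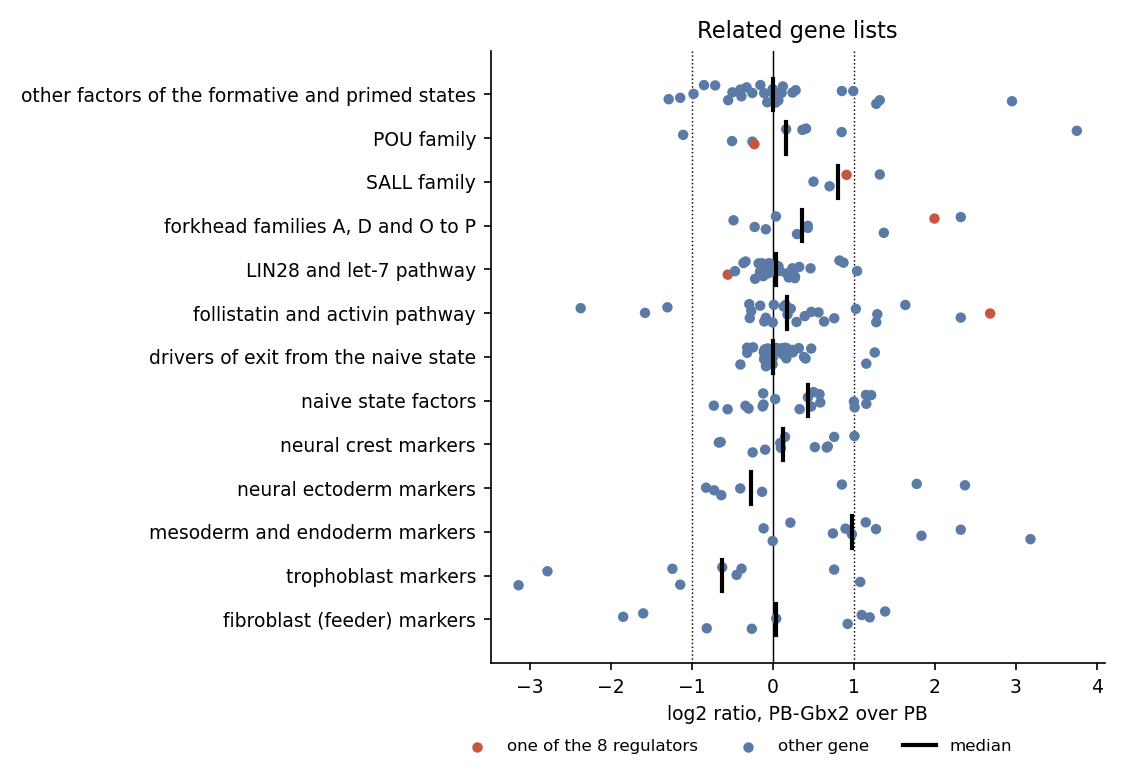
Log2 ratio of PB-Gbx2 over PB for each listed gene of the related lists (points, spread vertically only to separate them), with the list median (black bar) and dotted lines at 1 and -1; Foxd3, Pou3f1, Sall2, Lin28a and Fst are in red. Most genes of the LIN28 and let-7 pathway and of the list labelled drivers of exit lie within 2-fold, and all SALL genes lie above 0.

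Several of the regulators also mark other cells, Foxd3 and the ZIC genes the neural crest and Pou3f1 the neural plate, so marker lists of such cells were read alongside. In bulk RNA, a change in the number of expressing cells and a change in RNA per cell cannot be told apart. Of 18 neural crest markers, 12 had a row, with a summed level of 4317 in PB and 5712 in PB-Gbx2. Snai1 (76 and 154) was the 1 past 2-fold, Sox10 stood at 26 and 29, and Sox9, Pax3 and Tfap2b have no row. Of 20 neural ectoderm markers, 8 had a row (summed level 3336 and 3051), with 3 above 0, 5 below and a median log2 ratio of -0.27. Sox1 (10 and 56) and Neurod1 (150 and 517) were past 2-fold higher, while Elavl3 (756 and 427), Tubb3 (1248 and 756) and Map2 (193 and 124) were lower by less than 2-fold. Pax6 has no row. Mesoderm and endoderm markers had 11 of 20 listed and 5 past 2-fold higher, among them Kdr (24 and 226). Of those 5, T and Foxa1 were listed only through PB-Gbx2. The summed level of the 11 (2126 and 2508) was mostly that of Lamb1 (1736 and 1606). Of the 11, 9 lay above 0, 1 below and 1 at 0, with a median log2 ratio of 0.98. Trophoblast markers had 9 of 15 listed, with 4 past 2-fold lower and 1 higher, 2 above 0 and 7 below, and a median log2 ratio of -0.62. The 4 were all keratin genes, Krt7, Krt8, Krt18 and Krt19, and Krt18 is also in the list of formative and primed factors above. Of the 4, Krt7 (43 and 4) was listed only through PB. The near-equal sums of the 9 markers (3541 and 3499) had their largest part from Tfap2c (1441 and 2439), which went the other way. Fibroblast markers had 9 of 16 listed, 3 past 2-fold higher and 2 lower, and their sum (30106 and 72585) was mostly that of Fn1 (26866 and 70328). Beside these counts, 5.14% of all genes were past 2-fold higher and 5.26% past 2-fold lower, and low levels scatter more. A minimum level of 100 in either library left 2 mesoderm and endoderm markers and 1 neural ectoderm marker past 2-fold higher. It left 3 trophoblast markers lower and 0 higher, and 1 fibroblast marker higher and 2 lower. The part of any of these cells in the values of the regulators was not tested.

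Libraries made with this kit do not mark the strand as far as the labels tell, so RNA from genes on the other strand could count for a regulator. In GENCODE M21, exons of 1 gene each overlap Pou3f1, Fst and Lin28a on the opposite strand, and none overlap those of Foxd3, Zic2, Zic5, Sall2 or Utf1. None of the 3 overlapping genes has a row in the table. The annotation behind the deposited levels is not given, so a missing row does not show that these genes add no RNA.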

How the data were processed

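RNA of 2 cultures, 1 per vector, was taken with Trizol and made into libraries with a TruSeq RNA kit, per the labels' protocols. STAR and the build mm9 are named in the submitters' processing notes. No version, annotation, counting tool or normalization is given in the sources used here. A gene's deposited level is a whole number that is handled here as a score, not as reads: once sorted, the values of the libraries match in all 14501 rows, which raw counts would not do. The authors' deposited ratio (fold) is PB over PB-Gbx2, with its log2, and the authors' deposited p-values are quoted only as theirs. Depth is unknown, so no counting interval was given. The plan had no test, and none was made.

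The 2 rows that share a symbol were summed. The log2 ratio used a pseudocount of 1, without a filter beyond a level of 1. Percentiles are within 20 groups of equal size by mean level. Named were the 8 regulators, Gbx2, relatives in the POU, SALL and LIN28 families, and in other lists the genes past 2-fold and the most abundant. Some further list members were chosen after their values were seen, and some genes under this rule are not reported here. The regulators and the 14 lists were chosen with earlier results of these data known. All 8 symbols matched GENCODE M21, and 5 matched the RefSeq promoter table (GRCm38.p6). The ratio and percentile code was tested on simulated data. Python 3.11.15, numpy 2.4.6, pandas 2.3.3 and matplotlib 3.10.9 were used.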

Additional observations from a re-analysis of the deposited data

How the results depend on the processing

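Each regulator kept its direction, and its log2 ratio moved by at most 0.585, with 0.1 or 5 as the pseudocount and after removal of the trend with level. A minimum level of 5 in either library could remove no gene, because no mean level lies under 8. Rescaling by the median changed no member, because both libraries already share 1 distribution. Neither of these settings says anything about stability. A minimum level of 100 in either library left out Zic2 and Fst and gave 1 regulator at least 2-fold higher, and so did leaving out Fst, whose lower level lies under the lowest mean of the table, a setting chosen after seeing the data. Over all genes, the minimum of 100 gave 269 higher and 259 lower, against 746 and 762, and a 1.5-fold threshold gave 1684 and 1770. Of the 185 listed genes of the related lists without the 8, taken once each, 28 were higher and 11 lower. Over all genes the shares were 5.14% and 5.26%, but the lists were chosen with earlier results of these data known, so the counts are only a description. The minimum of 100 gave 16 higher, and the 1.5-fold threshold gave 44 higher and 22 lower. The median of the fibroblast list was 0.04, and -0.81 at a minimum of 100. Percentiles among genes within a fixed fold of the regulator's mean level, or within groups by geometric mean (chosen after seeing the data), moved by no more than 5 points. No paired analysis was possible because there is a single library per vector, and leaving 1 out would leave no comparison.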
